A study of Mus musculus with 6 samples.

Results

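Nicotinic acetylcholine receptors are ion channels made of 5 subunits that open when acetylcholine binds. The table of iWAT, the white fat under the skin of the groin, listed 10 of their subunit genes among 16538 genes, namely every row whose symbol begins with Chrna, Chrnb, Chrnd, Chrne or Chrng. Of these, 3 belong to the muscle type of the receptor (Chrna1, Chrnb1 and Chrne) and 7 to the neuronal type (Chrna2, Chrna3, Chrna4, Chrna5, Chrna10, Chrnb2 and Chrnb4). The study asked what the loss of Nrg4 in adipocytes does to beige fat, the heat-producing adipocytes that appear in white fat in the cold. Adipocyte-specific Nrg4-KO mice (AKO, "NRG4-AKO" in the labels), made from a conditional Nrg4 allele (fl/fl) and Adiponectin-Cre, which acts in adipocytes, were compared with fl/fl controls ("wt" in the labels). Both groups had been kept at 8°C for 10 days by the labels; the paper's text gives a longer time. Age and sex of the sequenced mice are not given in the sources used here. Bulk RNA-Seq, which counts the reads on each gene, was done on 3 control and 3 AKO samples, each RNA pooled from 2 mice, so that p-values measure the spread between these pools. Values are normalized counts, the reads of a gene divided by a factor for the sample. Depth was 17570335 to 18128524 reads on the listed genes in control and 17995218 to 18373707 in AKO.

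In skeletal muscle, receptors of the alpha1, beta1, delta and epsilon subunits sit at the endplate, the contact with the motor nerve, and the gamma subunit replaces epsilon before birth. Neurons build their receptors from alpha subunits such as alpha2, alpha3 and alpha4 together with beta2 or beta4, while alpha5 joins as an accessory subunit. In fat, Chrna2 is known as the subunit of beige adipocytes that receives acetylcholine, and its activation is known to raise cAMP signaling and thermogenic genes. Inguinal fat can also carry skeletal muscle, so skeletal muscle actin (Acta1) was followed across the samples to keep Chrna2 apart from the muscle-type subunits.

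The alpha subunits carry adjacent cysteines beside the acetylcholine site, which the beta subunits lack. The stretches of 15 codons below, read from the coding sequence of GENCODE transcripts, show this difference for the subunits that the results turn on. Cysteine codons of the pair stand in capitals, and the stretches cover codons 217 to 231 of Chrna2, 205 to 219 of Chrna1, 222 to 236 of Chrnb1 and 208 to 222 of Chrnb2.
Chrna2: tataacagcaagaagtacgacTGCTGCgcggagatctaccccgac
Chrna1: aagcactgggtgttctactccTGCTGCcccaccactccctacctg
Chrnb1: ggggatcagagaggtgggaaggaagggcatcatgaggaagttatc
Chrnb2: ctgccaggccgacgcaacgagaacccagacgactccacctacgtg
All 6 alpha genes in the table held the pair, and none of the beta and epsilon genes held it at the aligned place.

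The promoters of the muscle-type genes were also searched for exact runs of letters that muscle regulators are known to bind. The 150 bases before the start of Chrna1 (chr2:73580339-73580488, minus strand), Chrne (chr11:70619195-70619344, minus strand) and Chrnb1 (chr11:69795938-69796087, minus strand) are given from RefSeq, build GRCm38.p6, because these 3 genes are the listed parts of the muscle receptor. Capitals mark the E-box CAGCTG, a site of the myogenic factors, and the N-box CCGGAA, known from genes expressed at the endplate, each searched on both strands.
Chrna1: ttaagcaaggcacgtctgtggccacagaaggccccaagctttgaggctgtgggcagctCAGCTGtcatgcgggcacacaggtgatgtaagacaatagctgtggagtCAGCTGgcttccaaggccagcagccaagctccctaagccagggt
Chrne: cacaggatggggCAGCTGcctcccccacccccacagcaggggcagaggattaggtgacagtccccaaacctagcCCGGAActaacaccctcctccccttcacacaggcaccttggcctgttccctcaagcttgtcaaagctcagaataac
Chrnb1: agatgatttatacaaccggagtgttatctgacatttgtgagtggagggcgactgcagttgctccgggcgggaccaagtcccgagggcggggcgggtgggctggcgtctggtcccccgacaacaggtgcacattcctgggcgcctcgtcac
Of these exact letters, Chrna1 held 2 E-boxes, Chrne held 1 E-box and 1 N-box, and Chrnb1 held neither. Other forms of the E-box were not searched, so the lack of a myogenic site in Chrnb1 is not shown. Of all 32851 RefSeq promoters of 300 bases, 16.3% held the E-box and 14.9% the N-box. Over the full 300 bases, the counts for these 3 genes were the same as in the 150 bases printed. A match of letters is a description and not a bound site.

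Nrg4 itself, the targeted gene, was at 3128, 3102 and 3092 normalized counts in control and at 2577, 2627 and 2691 in AKO. The AKO samples were all lower, so that the whole-gene reads go with the labels, although most of the signal remained. By qPCR the paper reports Nrg4 mRNA as almost gone in AKO iWAT, a measure unlike reads over the whole gene. The difference between the measures was not tested. Acta1 had 62.2, 6536 and 3498 normalized counts in control 1, 2 and 3 and 4377, 15280 and 27040 in AKO 1, 2 and 3, a 435-fold range. Of 26 skeletal muscle markers, 25 were listed, and their summed level ran from 819 to 32200 in control and from 23810 to 135500 in AKO. Myh7 and Myoz1 were at 0 in at least 1 sample. The groups overlapped, with AKO 1 below control 2. Adipocyte markers were high throughout, at a summed 300600 to 325600 in control and 269900 to 298800 in AKO. Control 1 and AKO 2 stood apart in lymphocyte genes (868 and 1205 summed normalized counts against 102 to 170 in the other samples).

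Chrna2 (chr14:66135039-66152948 of GRCm38, plus strand) had 258, 331 and 293 normalized counts in control 1, 2 and 3. The AKO samples had 179, 128 and 169. All AKO samples lay below all control samples, and the highest AKO value was well under the lowest control value. Control averaged 294 ± 36.7 (SD, n = 3) and AKO 158 ± 26.9 (SD, n = 3), a difference of -46.1%. They rested on 853 reads in control (exact 95% Poisson interval 797 to 912, counting error only) and 492 in AKO (449 to 537). In bulk tissue, fewer cells that express Chrna2 and less Chrna2 RNA per cell cannot be told apart.

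For Chrna2, limma on log2(normalized count + 1) gave a log2 fold change of -0.90 ± 0.15 (SE) and an adjusted p of 0.205 over the 13855 genes whose mean reached 10, which is no call at 0.05. DESeq2 on the whole reads recovered from the deposited values gave -0.89 with an adjusted p of 0.000544, and this was the only one of 20 alternatives under which the gene was called. In limma's order Chrna2 had the 46th lowest log2 fold change and the 26th smallest p of 13855. Limma called 0.0144% of the genes it tested, while DESeq2 called 0.757% lower and 0.241% higher of 14923. Groups that did not overlap, with AKO below, were found for 8.31% of the 13855 genes, and with AKO above for 6.14%. The exact permutation test of 3 samples against 3, 2-sided, gave p = 0.1 for Chrna2, the smallest it allows. In fits added after the data were seen, the log2 fold change of Chrna2 was -0.84 without the samples of high lymphocyte genes and -1.04 without control 1 and AKO 3, the samples of lowest and highest Acta1 (adjusted p = 0.322 and 0.554 from limma).

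**Figure D1:**
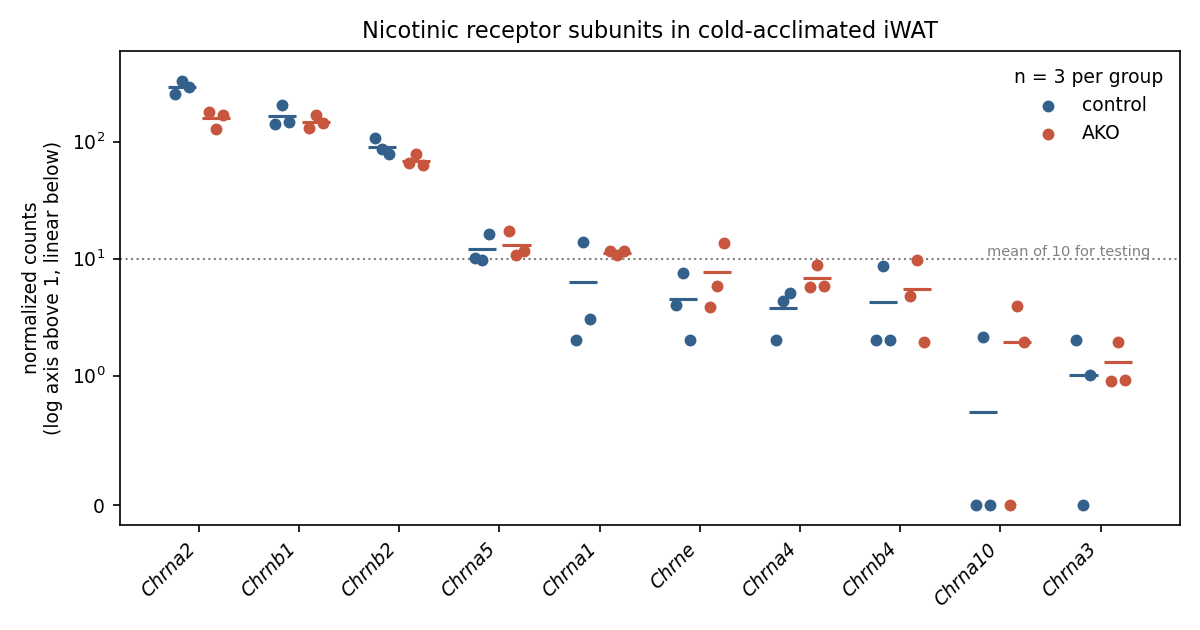
Normalized counts of the 10 nicotinic receptor subunit genes in each control and AKO sample (points; n = 3 per group), with group means as bars, on an axis that is logarithmic above 1. Chrna2 has the highest counts in control, 258 to 331, and its AKO samples, 128 to 179, lie below them, while the other subunits tested overlap between the groups.

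Chrnb1 (chr11:69784036-69795943, minus strand), the beta subunit of the muscle receptor, had 141, 208 and 148 normalized counts in control and 132, 170 and 145 in AKO. The groups overlapped almost completely, with control 2 the highest sample and AKO 1 the lowest. Control averaged 165 ± 36.6 (SD, n = 3) and AKO 149 ± 19.5 (SD, n = 3), and the limma log2 fold change was -0.14 ± 0.17 (SE), at an adjusted p of 0.870. Across the samples Chrnb1 ranged 1.58-fold, against the 435-fold range of Acta1. For each 1000 normalized counts of Acta1 there were 2260 of Chrnb1 in control 1, where Acta1 was lowest, and 5.35 in AKO 3, where it was highest. Chrnb1 was at nearly the same level in control 1 (141), with the least muscle actin, and in AKO 3 (145), with the most. Control 2 and AKO 2, at 208 and 170, were higher than control 1.

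Chrna1 (chr2:73563215-73580338, minus strand), the subunit that holds the acetylcholine site of the muscle receptor, was far lower. Its reads numbered 2, 13 and 3 in control 1, 2 and 3 and 12, 11 and 12 in AKO 1, 2 and 3. Control 1 and 3 were low, and control 2 was above all AKO samples, so that the groups overlapped. The sums were 18 reads in control (exact 95% Poisson interval 10.7 to 28.4) and 35 in AKO (24.4 to 48.7), and at this depth the intervals overlap. With a mean of 8.81 normalized counts Chrna1 was under the minimum for the test. Fitted without that minimum, its limma log2 fold change was 1.11 ± 0.59 (SE), at an adjusted p of 0.661. That value was 0.66 without control 1, 1.81 without control 2 and 0.45 with a pseudocount of 10.

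Chrne (chr11:70614883-70619216, minus strand), the adult epsilon subunit, had 4, 7 and 2 reads in control and 4, 6 and 14 in AKO. The highest value was in AKO 3, the sample with the most Acta1, and the groups overlapped. Chrnd and Chrng, the delta and gamma subunits, were not among the listed genes.

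The relation of each subunit to Acta1 was computed on log2(normalized count + 1) over the 6 samples for 8 subunits, with exact permutation tests over the pairings and adjustment over the 8. The plan covered only the 4 subunits with a mean of at least 10. Chrna1, Chrna4, Chrnb4 and Chrne were under it, were added outside the plan and rest on few reads. Chrna1 had a Pearson r of 0.803 (exact permutation p = 0.0264, adjusted 0.104) and a Spearman rho of 0.714 (exact permutation p = 0.136, adjusted 0.363). Within groups r was 0.685, and without control 1 and AKO 3, the samples farthest from the median of Acta1, it was 0.525 over 4 samples. Without control 1 alone it was 0.4997 (exact permutation p = 0.375). Chrne had r = 0.499 and rho = 0.771 (exact permutation p = 0.321 and 0.103). For Chrnb1 r was 0.301 and rho 0.371 (exact permutation p = 0.543 and 0.497). Within groups its r was 0.662 (exact permutation p = 0.142), close to that of Chrna1, and without the same 2 samples 0.469. Chrna2 had r = -0.447 and rho = -0.543 (exact permutation p = 0.422 and 0.297), with r = 0.395 within groups and -0.648 without the same 2 samples. No relation passed 0.05 after adjustment.

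Chrna2 at a given level of Acta1 was compared where the groups meet. AKO 1, with 4377 normalized counts of Acta1, lay between control 3 (3498) and control 2 (6536). Chrna2 was at 179 in AKO 1, at 293 in control 3 and at 331 in control 2. Control 1 had hardly any Acta1, and its Chrna2, 258, was nearer to the other control samples than to AKO. With log2 Acta1 as a covariate in limma, the log2 fold change of Chrna2 was -1.0 (adjusted p = 0.221), that of Chrnb1 -0.35 and that of Chrnb2 -0.21.

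**Figure D2:**
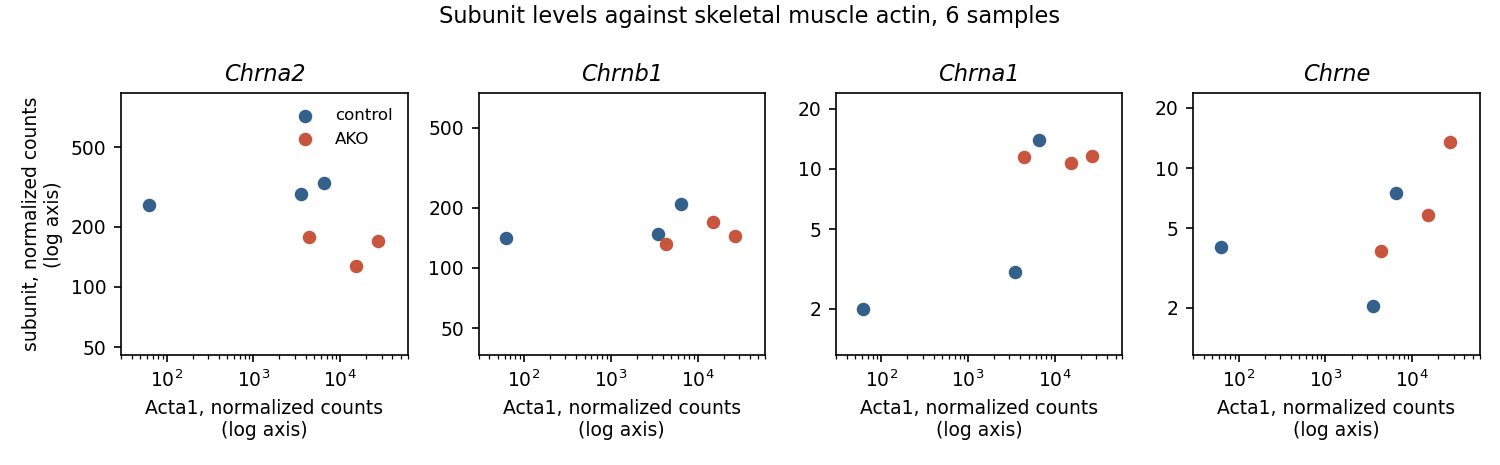
Normalized counts of Chrna2, Chrnb1, Chrna1 and Chrne in each of the 6 samples against those of Acta1, skeletal muscle actin, on log axes with the same fold span on each vertical axis. The control samples of Chrna2 lie above its AKO samples, Chrnb1 stays between 132 and 208, and Chrna1 is lowest where Acta1 is lowest.

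Of the other neuronal subunits, Chrnb2 (chr3:89746195-89764632, minus strand), a beta subunit that pairs with alpha2 and alpha4 in the brain, had 107, 86.0 and 78.3 normalized counts in control and 65.3, 79.1 and 62.7 in AKO. Control 3 was just below AKO 2, and otherwise the control samples were higher. The limma log2 fold change was -0.38 ± 0.17 (SE), at an adjusted p of 0.564. Its exons share 16.29% of their bases with Adar on the opposite strand, and the sources used here do not say whether counting used strand. Adar was at 795 ± 19.6 (SD, n = 3) normalized counts in control and 810 ± 25.4 in AKO, and its part in the Chrnb2 value was not tested. Against Acta1, Chrnb2 had r = -0.809 (exact permutation p = 0.0389, adjusted 0.104), but r was 0.345 without control 1 and AKO 3. Without control 1 alone r was -0.342 and without AKO 3 alone -0.751 (exact permutation p = 0.508 and 0.192), so that the relation rests mainly on control 1.

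Chrna5 (chr9:54980880-55007779, plus strand), the accessory alpha subunit, had 10.0, 9.68 and 16.3 normalized counts in control and 17.3, 10.7 and 11.6 in AKO. The groups overlapped, and the limma log2 fold change was 0.14 ± 0.37 (SE), at an adjusted p of 0.951.

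The remaining neuronal genes were near the limit of detection. Chrna4 (chr2:181018380-181043546, minus strand) had 2, 4 and 5 reads in control and 6, 9 and 6 in AKO. Its AKO samples were above the control samples, yet the sums, 11 reads (exact 95% Poisson interval 5.49 to 19.7) and 21 (13 to 32.1), had overlapping intervals. Chrna4 gave r = 0.887 against Acta1 (exact permutation p = 0.0375, adjusted 0.104) and 0.745 without the same 2 samples. Without control 1 alone it was 0.483 (exact permutation p = 0.425). Chrnb4 (chr9:55028154-55048779, minus strand) had 2, 8 and 2 reads in control and 5, 10 and 2 in AKO. Chrna3 (chr9:55010111-55026562, minus strand) had 3 reads in all control samples together and 4 in AKO, and Chrna10 (chr7:102111266-102116828, minus strand) had 2 and 6. Of the exonic bases of Chrna10, 39.0% are shared with Art1 on the opposite strand, a gene chosen here after its values were seen, which had 0, 38.7 and 17.3 normalized counts in control and 27.9, 104 and 151 in AKO. Differences in Chrna3 and Chrna10 were not detectable at this depth.

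Of the 10 subunits, 4 had a mean that reached 10, and limma called none of them. DESeq2 called 1, Chrna2. Of the 4, 1 had p under 0.05 before adjustment, again Chrna2, where 4.69% of all genes tested had such a p and were lower in AKO, and 4.41% were higher. The groups did not overlap for Chrna2, with AKO below, and for none of the other 3.

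To compare subunits with each other, normalized counts were divided by the exonic length of each gene in kb. In control, Chrna2 was at 77.6 ± 9.68 per kb (SD, n = 3), Chrnb1 at 65.4 ± 14.5, Chrnb2 at 10.8, Chrna5 at 3.84, Chrne at 2.68 and Chrna1 at 1.45, and the other 4 were lower. Chrna2 was above Chrnb1 within each control sample (68.1, 87.5 and 77.3 against 55.5, 82.0 and 58.6 per kb). Their ranges over the control samples overlapped, and the difference was not tested. In AKO the order of the leading pair was the opposite, with Chrnb1 at 58.7 ± 7.7 per kb (SD, n = 3) and Chrna2 at 41.8 ± 7.1. Chrnb2 was at 8.24, Chrne at 4.58, Chrna5 at 4.22 and Chrna1 at 2.57.

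As a share of the summed level per kb of all 10 subunits, Chrna2 made up 47.4%, 45% and 50.2% in control 1, 2 and 3. In AKO 1, 2 and 3 its share was 39.3%, 26.8% and 35.3%. Chrnb1 made up 38.6%, 42.2% and 38.0% in control and 43.3%, 53.3% and 45.3% in AKO. The AKO samples were below control for Chrna2 and above control for Chrnb1, although the level of Chrnb1 itself overlapped. Chrna1, the alpha partner of Chrnb1 in muscle, was at most 2.19% of the sum in any sample.

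**Figure D3:**
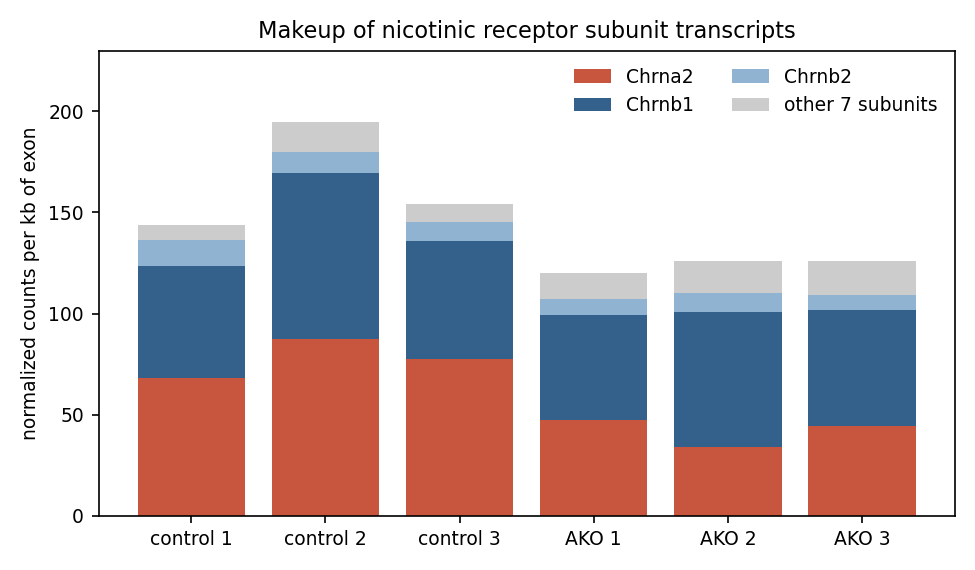
Level of each nicotinic receptor subunit in normalized counts per kb of exon, stacked for each of the 6 samples, with the 7 lowest subunits summed. Chrna2 (red) and Chrnb1 (dark blue) make up most of each bar, and the Chrna2 part is 68.1 to 87.5 in control and 33.8 to 47.2 in AKO.

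Whether Chrna2 moved apart from other genes was tested with the log2 ratio of Chrna2 to 6 genes within each sample. The ratio to Chrnb1 was 0.87, 0.67 and 0.98 in control and 0.44, -0.41 and 0.22 in AKO. All AKO samples were lower, by a mean of 0.592-fold, with p = 0.1 in the exact permutation test (2-sided), the smallest it allows, and 0.12 after adjustment over the 6 ratios. Chrna2 was also lower in all AKO samples relative to Adipoq, the adipocyte hormone adiponectin (0.575-fold), and to Plin1, the lipid droplet coat protein perilipin (0.573-fold), at the same exact permutation p. Adipoq and Plin1 themselves overlapped between the groups.

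Relative to Ucp1, the uncoupling protein that makes heat in beige mitochondria, the ratio ran the other way. It was -6.12, -6.26 and -5.84 in control and -4.91, -5.23 and -5.52 in AKO on the log2 scale, higher in all AKO samples and 1.81-fold on average (exact permutation p = 0.1, adjusted 0.12). Ucp1 had 18060, 25390 and 16830 normalized counts in control and 5401, 4836 and 7801 in AKO, so that Chrna2 was lower in AKO by less than Ucp1 was. Relative to Cidea, a lipid droplet protein of thermogenic adipocytes, Chrna2 did not differ beyond the spread. That ratio was -4.24, -4.47 and -4.19 in control and -3.97, -4.78 and -4.36 in AKO, and the groups overlapped (exact permutation p = 0.8). The ratio to Chrna1 was 0.249-fold in AKO, but the few reads of Chrna1 make it uncertain.

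**Figure D4:**
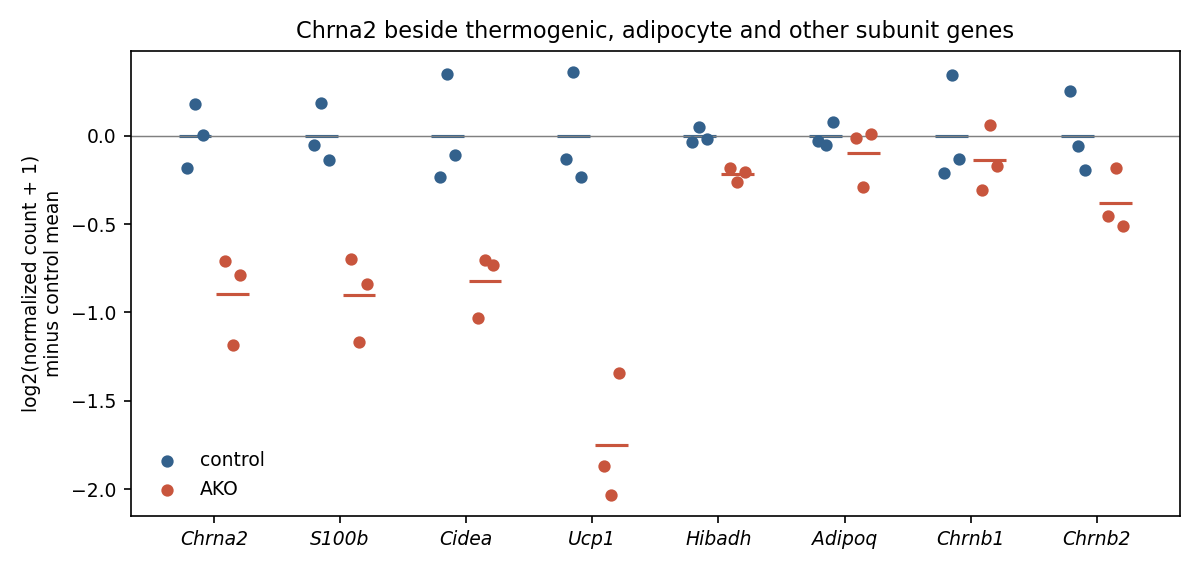
Log2(normalized count + 1) minus the control mean in each control and AKO sample (points; bars are group means, n = 3) for Chrna2, S100b, Cidea, Ucp1, Hibadh, Adipoq, Chrnb1 and Chrnb2. Chrna2, S100b and Cidea are lower in AKO by nearly the same amount (-0.90, -0.90 and -0.82), Ucp1 by more, and Adipoq and Chrnb1 overlap with control.

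The genes whose log2 values were most like those of Chrna2 over the 6 samples were Hibadh, an enzyme of valine breakdown (Pearson r = 0.992), Atg12, a factor of autophagy (0.991), Pmm2, a phosphomannomutase of glycosylation (0.991), Akr1b10, an aldo-keto reductase (0.990), and Mrpl3, a protein of the mitochondrial ribosome (0.990). These 5 were lower in every AKO sample, but with small differences, from -0.12 (Atg12) to -0.26 (Pmm2) on the log2 scale. Ucp1 stood at place 74 (r = 0.955) and Cidea at 537 (0.859). The samples share group and depth, so these values only describe the pattern.

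S100b, a calcium-binding protein known in Schwann cells and in adipocytes, was chosen after its values were seen, at place 7 (r = 0.986). It had 217, 256 and 204 normalized counts in control and 138, 99.6 and 125 in AKO. As for Chrna2, control 2 was highest and AKO 2 lowest, and the groups did not overlap. The difference was -0.90 ± 0.15 (SE) on the log2 scale, with an adjusted p of 0.205 in limma and 0.00162 in DESeq2.

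Most like Chrna1 were Gap43, a growth-cone protein of nerve fibers (r = 0.989), Akr1c14, a steroid dehydrogenase (0.974), Igsf11, an adhesion molecule (0.972), Gtf2h4, a subunit of the transcription and repair factor TFIIH (0.971), and Mybpc1, the myosin-binding protein C of slow muscle (0.965). Gap43 had 16.1, 33.3 and 19.3 normalized counts in control and 32.7, 31.2 and 28.9 in AKO, with the same low samples as Chrna1, control 1 and 3. Mybpc1 had 5.02, 188 and 20.3 in control and 66.3, 92.8 and 117 in AKO. Acta1 was at place 378 for Chrna1.

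The genes Chrna5, Chrna3 and Chrnb4 form a cluster on chromosome 9 that lies 212.4, 193.7 and 171.4 kb from Nrg4, the gene deleted in AKO adipocytes. None of these 3 differed beyond the spread of its samples. Of the other listed genes within 0.5 Mb that were tested, Wdr61, Ireb2, Hykk, Psma4, Ube2q2, Fbxo22 and Scaper overlapped between the groups, with limma log2 fold changes from -0.05 to 0.16. Etfa, which carries electrons from fatty acid oxidation and lies 127.7 kb from Nrg4 on the other side, had 4887, 5217 and 4674 normalized counts in control and 3893, 3693 and 3862 in AKO. All its AKO samples were lower, with a difference of -0.37 ± 0.06 (SE) on the log2 scale, and the adjusted p was 0.205 in limma and 0.000544 in DESeq2.

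Genes that place and hold the receptor at the endplate were taken as a list of 18, of which 17 were listed and 15 tested. Of these, 5 were lower and 10 higher in AKO, with a median log2 fold change of 0.08 against 0.007 over all genes tested, and neither limma nor DESeq2 called any. The 4 with the highest mean were Prkar1a, a regulatory subunit of PKA, Utrn, the dystrophin homolog utrophin, Macf1, a linker of microtubules and actin, and Agrn, the nerve signal agrin that clusters receptors. Their log2 fold changes lay between -0.12 and 0.02. Before adjustment, p was under 0.05 for 2 genes, both higher in AKO, where 4.41% of all genes tested had such a p and were higher. The 2 genes were Rapsn, the protein rapsyn that anchors the receptor, and Etv5, a transcription factor, which were chosen after their values were seen. Rapsn had 5.02, 3.23 and 8.13 normalized counts in control and 9.60, 15.6 and 19.3 in AKO (log2 fold change 1.32, adjusted p = 0.498 from limma). It reached the minimum mean of 10 only through AKO (mean 14.8, against 5.46 in control), so its p is not independent of that filter. Musk, the kinase that starts receptor clustering, had at most 5.79 normalized counts in any sample.

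Of the genes for acetylcholine itself, 8 of 10 were listed and tested, 2 were lower and 6 higher in AKO (median log2 fold change 0.11), and none was called by limma or DESeq2 or had a limma p under 0.05 before adjustment. Chat, which makes acetylcholine, and Slc18a3, which loads it into vesicles, were not among the listed genes. Acly, which supplies acetyl-CoA, mainly for lipid synthesis in fat, had 19930 to 48380 normalized counts in control and 35900 to 61730 in AKO. Bche, the butyrylcholinesterase that breaks down choline esters, had 1545 to 2093 and 1742 to 2255, and the choline transporters Slc44a2 and Slc44a1 ran from 996 to 1153 and from 764 to 930 over the 6 samples. Ache, the acetylcholinesterase of the endplate, was named after its values were seen, with 13.1, 43.0 and 22.4 in control and 31.7, 43.0 and 66.5 in AKO, highest in the sample with the most Acta1 (log2 fold change 0.92, adjusted p = 0.589 from limma). The muscarinic receptors, which bind the same transmitter but signal through G proteins, were at the limit of detection, with Chrm1, Chrm3 and Chrm4 listed and none of them at a mean of 10.

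Of the chaperones and Ly6 modulators of the receptor, 6 of 11 were tested, 5 lower and 1 higher in AKO (median log2 fold change -0.11), and again neither tool called any, with 0 at a limma p under 0.05 before adjustment. The 4 with the highest mean, the Ly6 proteins Ly6e and Lynx1, Unc50, which helps receptors leave the Golgi, and Ric3, which helps them fold, had log2 fold changes between -0.12 and 0.04. Over the union of these 4 lists, 28 of 43 genes were tested, 11 lower and 17 higher, with a median log2 fold change of 0.05 and no gene called by either tool. Of this union, 2 genes, both higher, had p under 0.05 in limma before adjustment, where 4.41% of all genes tested did so in that direction, which is near the background. They include Rapsn, which was tested only because of its AKO values.

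Of 11 listed GABA and glycine receptor subunits, 3 were tested, and all 3 had higher means in AKO, namely Gabra3, Gabre and Glra1. None was called by limma or DESeq2, and 1, Gabra3, had a limma p under 0.05 before adjustment. Of all genes tested, 4.41% had such a p and were higher. Gabra3, an alpha subunit of the GABA-A receptor, had 176, 197 and 202 normalized counts in control and 254, 239 and 255 in AKO. All its AKO samples were above control, the reverse of Chrna2 at a similar count (log2 fold change 0.38 ± 0.10, limma adjusted p = 0.350). Groups lay apart with AKO above for 6.14% of all genes tested.

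Downstream of the receptor, calcium and cAMP act through PKA and the CaM kinases. Of 10 such genes 9 were tested, 4 lower and 5 higher in AKO (median log2 fold change 0.04). Limma called none, with 3 lower and 1 higher at a p under 0.05 before adjustment, and DESeq2 called 2, both lower. Over all genes tested the shares were 4.69% lower and 4.41% higher in limma, and 0.757% lower in DESeq2. The 2 genes that DESeq2 called were Prkar2b, the main regulatory PKA subunit of adipocytes, and Adcy3, an adenylyl cyclase. Prkar2b had 21940, 21680 and 19820 normalized counts in control and 18000, 17580 and 17220 in AKO (log2 fold change -0.26, adjusted p = 0.374 from limma and 0.0248 from DESeq2). Adcy3 had 1328, 1520 and 1118 in control and 781, 770 and 871 in AKO (-0.70, adjusted p = 0.196 and 7.84e-06). The AKO samples of both genes were below all control samples. Prkaca, a catalytic PKA subunit, Atp2a2, the calcium pump SERCA2, and Prkacb had log2 fold changes of -0.18, -0.16 and 0.05.

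Chrna2 is also known for the glycolytic kind of beige fat. Of 14 genes of that program 13 were tested, 8 lower and 5 higher in AKO, with a median log2 fold change of -0.03 and none called by limma or DESeq2. The phosphofructokinase Pfkl was the 1 gene with a limma p under 0.05 before adjustment (log2 fold change -0.40), where 4.69% of all genes tested had such a p and were lower. Aldoa, Pfkfb3, Ldha and Slc2a4, the glucose transporter GLUT4, had the highest means and log2 fold changes between -0.02 and 0.04. Gabpa, the transcription factor known to direct glycolytic beige cells, had 985, 865 and 773 normalized counts in control and 753, 771 and 764 in AKO, with AKO below control by a narrow gap (log2 fold change -0.19, adjusted p = 0.590 from limma). By contrast, 13 of 14 thermogenic genes were lower, with a median of -0.45. Limma called 1 of them, Elovl3, a fatty acid elongase of brown and beige fat (log2 fold change -1.64, adjusted p = 0.0350), and DESeq2 called 6. Over all genes tested, limma called 0.0144% and DESeq2 called 0.757% lower. That thermogenic genes were lower in these samples was known when the list was drawn up, so it is not independent evidence of its direction.

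**Figure D5:**
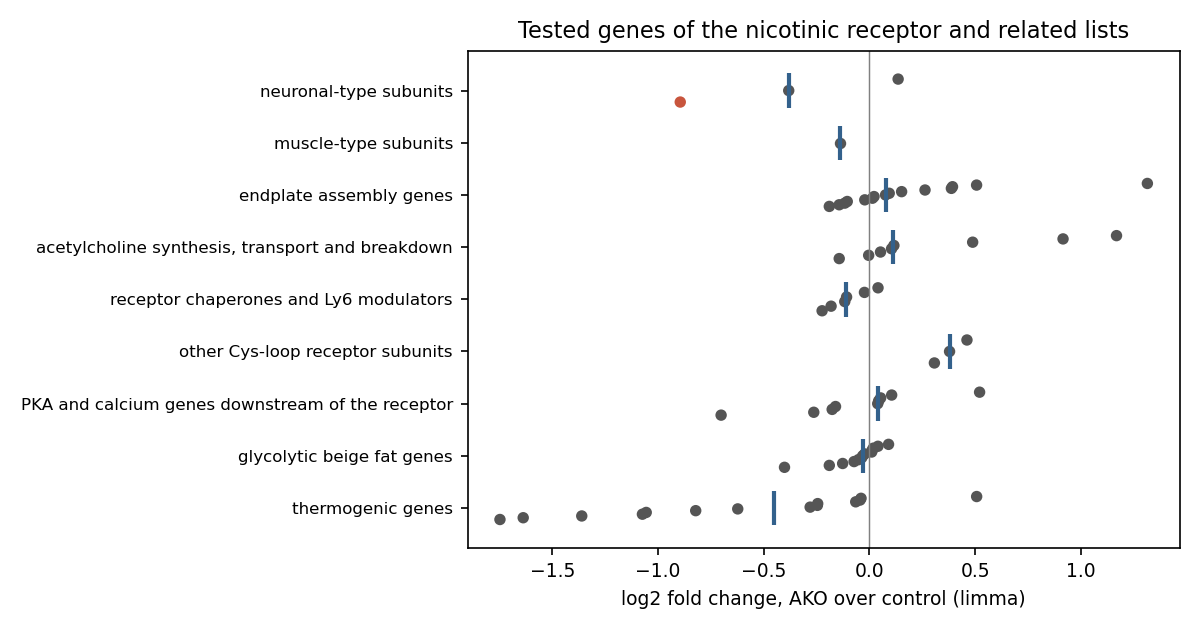
Log2 fold change of AKO over control from limma for each tested gene (points) of the subunit lists and of related lists, with the median of each list as a blue bar and Chrna2 in red. Chrna2 (-0.90) lies below the tested partner genes of the receptor, whose list medians run from -0.11 to 0.11, and within the span of the thermogenic genes (median -0.45). Single partner genes lie as far from 0 on the other side, such as Rapsn (1.32) and Slc5a7 (1.17).

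Of 6 sympathetic neuron markers, Ddc, Slc6a2 and Stmn2 were listed and Th, Dbh and Npy were not, and the listed ones summed to 76.4 to 84.4 normalized counts in control and 54.7 to 87.9 in AKO. The ranges overlapped. Epithelial markers summed to 24.7 to 952 in control and 148 to 1433 in AKO, and macrophage markers to 7876 to 10920 and 9745 to 12980. In each of these 2 lists all 6 markers had positive limma log2 fold changes, and neither limma nor DESeq2 called any. The median was 0.38 for macrophages, with 4 at a limma p under 0.05 before adjustment, and 1.22 for epithelium, with 0. All 4 progenitor markers had higher means in AKO, with sums of 6042 to 8514 in control and 7755 to 11200 in AKO. Of these, DESeq2 called Dpp4 (583, 832 and 727 normalized counts in control and 1090, 944 and 1117 in AKO, adjusted p = 0.00844), and limma called none, with 2 at p under 0.05 before adjustment. Over all genes tested, DESeq2 called 0.241% higher, and 4.41% were higher at a limma p under 0.05. The part of these cell types in the subunit values was not tested.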

How the data were processed

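RNA-Seq was performed on iWAT of 3 control and 3 AKO samples. The authors mapped reads to GRCm38.p6 with STAR, assigned them to GENCODE M25 genes with featureCounts and deposited a signal for each gene and sample, namely counts after scaling by DESeq2 size factors. Columns of log2 fold changes made by the authors, and p-values made by the authors, were not used. Values were whole multiples of the value of 1 read in every sample (100% whole, tolerance 0.01), and reads were recovered by division.

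The main test was limma (version 3.58.1, R 4.3.3) on log2(value + 1) with a variance trend, for the 13855 genes whose mean reached 10, with Benjamini-Hochberg adjustment and a threshold of 0.05. It was tested on simulated data. Alternatives were other pseudocounts and filters, TMM factors, edgeR (version 4.0.16) and DESeq2 (version 1.42.0) on recovered reads, limma-voom, Acta1 or a muscle score as covariate, the replicate block, and leaving out samples. Positions and exonic lengths came from GENCODE M21 (GRCm38), in which all 10 subunits matched by symbol.

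The members and lists were chosen with earlier results of these data known. Named were all subunits, Acta1, Nrg4, the 5 genes most like Chrna2 and the 5 most like Chrna1, genes within 0.5 Mb of Nrg4, and from each list the called members or else the 4 with the highest mean. Others are said to be chosen after their values were seen. Some genes of a marker list are not reported here.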

Additional observations from a re-analysis of the deposited data

How the results depend on the processing

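Chrna2 kept its direction under all 20 alternatives, with log2 fold changes from -1.04 to -0.75 and adjusted p from 0.000544 to 0.554. Only DESeq2 called it (-0.89), so that 1 subunit was called there and 0 under the other 19 alternatives, and the cholinergic and endplate lists had 0 calls under all 20. Leaving out each sample in turn moved Chrnb1 between -0.246 and 0.0339, positive only without control 2, Chrna5 between -0.0609 and 0.359, negative only without AKO 1, and the ratio of Chrna2 to Cidea between -0.272 and 0.132, positive only without AKO 2. The difference in Chrna1 was 0.656 to 1.81 with each sample left out. That in Chrna4 was 0.74 without the filter and 0.28 with a pseudocount of 10.

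Several relations to Acta1 moved. With deviations from group means, r was 0.395 for Chrna2, 0.662 for Chrnb1 and -0.671 for Chrnb2. Against a summary score of muscle genes it was -0.785 for Chrnb2. Without control 1 and AKO 3, it was -0.733 for Chrna5 and 0.345 for Chrnb2. Leaving out each sample in turn gave -0.630 to 0.261 for Chrna5 and -0.893 to -0.342 for Chrnb2. None of these values had an exact permutation p under 0.05, against 0.0389 for Chrnb2 over all samples, and the cause of these shifts was not tested. Leaving out each sample in turn gave 0.4997 to 0.929 for Chrna1, 0.483 to 0.928 for Chrna4 and 0.00551 to 0.733 for Chrnb4, each lowest without control 1. Over the 11 alternatives, the unadjusted p no longer passed 0.05 in 4 for Chrna1 and 7 for Chrna4.

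Replicate numbers did not pair the samples, since the correlations of same-numbered deviations were 0.136, -0.352 and 0.24. With the replicate number as a block, Chrna2 had a log2 fold change of -0.90 (adjusted p = 0.142 from limma), and no subunit was called. Depth limited 6 of the 10 subunits, which had under 10 normalized counts on average, and exact intervals cover counting error only. Pools of 2 mice hide the spread between mice, and a 3 against 3 permutation test cannot go below 0.1.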
